A study of Homo sapiens with 4 samples.

Results

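Lysosomal genes were followed by RNA-Seq in OCI-AML3 cells, an established human acute myeloid leukemia (AML) line in which NPM1 carries a heterozygous mutation (mtNPM1). According to the study, the line also carries mutations of DNMT3A and NRAS, which both groups share. Cells were transfected, for editing with Cas9, with a control guide RNA (sgNeg in the labels, sgRNA Ctrl in the study) or with sgNPM1A, a guide RNA against the mutant NPM1 allele, and were harvested 3 days (72 hours) later. There were 2 libraries per group, which the study calls biological replicates, and 4 in all. The sources used here describe no selection or cloning of edited OCI-AML3 cells before the harvest, so that each library is a transfected culture. The group comprised 48 genes named for their place in the lysosome, which were matched by Ensembl identifier to 48 of the 58037 rows of the count table. Of these, 46 passed the filter on low counts and were tested among 15718 genes. The lowest count of a tested member in any library was 118 (CTSK), so each was detected in both groups. ACP5, an acid phosphatase of osteoclasts and macrophages, had between 0 and 4 counts per library and LGMN, the protease legumain, between 0 and 1, and neither was tested.

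Total counts per library lay between 25069484 and 28276391, mitochondrial genes took between 8.37% and 8.63% of them, and the 20 most abundant genes between 12.1% and 12.8%. NPM1, whose counts sum both alleles, was at 1352 ± 47.1 CPM (counts scaled to the normalized library size, as mean and SD of n = 2 libraries) with sgNeg and at 1161 ± 40.7 CPM (SD, n = 2) with sgNPM1A, which is -0.22 as the log2 fold change (log2FC) from sgNeg to sgNPM1A (adjusted p = 0.0360 by edgeR's test). The myeloid genes CD33, SPI1, CEBPA, ANPEP, PTPRC and MPO were detected in every library, whereas KIT had 2 counts or fewer. MPO, the myeloperoxidase of granules, rose with sgNPM1A by 1.77 on the log2 scale, SPI1 by 0.48 and ANPEP by 0.49 (adjusted p = 7.52e-06, 0.000552 and 0.000528). The T cell genes CD3D, CD3E and CD2 and the hemoglobin genes HBB and HBG1 had 0 counts in every library. COL1A2, a fibroblast collagen, had 698 and 740 counts with sgNeg and 361 and 259 with sgNPM1A, and the 3 fibroblast genes COL1A1, COL1A2 and DCN summed to between 28.1 and 29.4 CPM with sgNeg and between 9.62 and 13.3 CPM with sgNPM1A. COL1A1 had 6 counts or fewer in each library and DCN between 5 and 15. The part of these genes in the lysosomal results was not tested. In a culture measured in bulk, fewer cells of a type and less RNA per cell cannot be told apart.

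The lysosome is the acidic compartment in which cells break down proteins, glycans, glycosaminoglycans and lipids delivered by endocytosis, phagocytosis and autophagy. A proton pump of the vacuolar type (V-ATPase) acidifies the lumen, soluble hydrolases do the cutting, small activator proteins present lipids to them, and heavily glycosylated membrane proteins line the boundary and export the products. Many of these genes are known to be controlled together by transcription factors of the MiT/TFE family, which bind the CLEAR element, a palindromic E-box in lysosomal promoters. Monocytes and macrophages are rich in lysosomes, and several lysosomal enzymes rise as myeloid cells mature.

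Promoters are shown for the members that hold the element by which lysosomal genes are known to be controlled together, a minority of those with a window. RefSeq promoter windows on GRCh38.p14, 250 bases before to 50 bases after a transcription start, were at hand for 34 of the 48 members. The CLEAR-type word TCACGTGA, read on both strands, was found in the windows of 7 of these 34 genes (20.6%), against 321 of 27305 genes in the whole promoter table (1.18%). The shorter E-box CACGTG, which lies inside the longer word, was found in 12 of the 34 (35.3%) against 8.77% of all genes. Stretches of 88 bases upstream of the start are given below for 6 of the 7 genes, 5′ to 3′ in the direction of transcription, with the word TCACGTGA in capitals. They lie at chr20:45891247-45891334 (CTSA), chr17:80101493-80101580 (GAA), chr16:88857075-88857162 (GALNS, minus strand), chr13:113297151-113297238 (LAMP1), chr19:7522536-7522623 (MCOLN1) and chr16:67481170-67481257 (ATP6V0D1, minus strand).
CTSA: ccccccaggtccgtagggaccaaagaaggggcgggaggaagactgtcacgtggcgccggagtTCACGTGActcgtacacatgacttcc
GAA: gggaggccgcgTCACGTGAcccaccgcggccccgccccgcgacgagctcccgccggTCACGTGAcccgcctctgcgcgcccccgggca
GALNS: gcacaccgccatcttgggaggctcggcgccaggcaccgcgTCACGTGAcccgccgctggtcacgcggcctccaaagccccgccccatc
LAMP1: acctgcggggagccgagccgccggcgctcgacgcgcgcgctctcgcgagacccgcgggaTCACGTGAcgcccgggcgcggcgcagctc
MCOLN1: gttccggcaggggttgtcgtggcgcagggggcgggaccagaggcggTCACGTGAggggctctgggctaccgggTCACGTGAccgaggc
ATP6V0D1: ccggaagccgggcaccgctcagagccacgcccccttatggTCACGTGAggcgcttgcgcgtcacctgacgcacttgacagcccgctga
GAA and MCOLN1 each held the word at a pair of places in these stretches. In LAMP1 a further copy spans the start, and in CLN3, the seventh gene, the word lies at the start itself. Of these 7 genes, GAA and GALNS were called higher with sgNPM1A and CTSA, LAMP1, MCOLN1, CLN3 and ATP6V0D1 were not called. By call, the word was found in 2 of 9 members called higher and in 5 of 23 members tested and not called, so that the printed element was spread over both.

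With sgNPM1A, 13 of the 46 tested lysosomal genes were higher and 4 were lower than with sgNeg. Calls rest on edgeR's quasi-likelihood F test, with p-values adjusted over all tested genes and kept under 0.05, and on a log2FC of at least 0.32 in size, which corresponds to the fold threshold used in the study. The genes called higher were 28.3% of the members and those called lower 8.7%. Of all tested genes, 10.5% were called higher and 10.3% lower, together 20.8%, against 37% of the members. The median log2FC of the members was 0.13 beside 0.00 over all tested genes, and 32 members had a positive and 14 a negative value. The changes were small: IDS, with a fold of 2.06, was the only member past a fold of 2, and 6 further members passed on p and missed the fold threshold. In 37 of the 46 members (80.4%) the sgNPM1A libraries lay both above or both below the sgNeg libraries, which was found in 63.1% of all tested genes. By mean CPM the tested members lay between percentile 37.6 (CLN3) and percentile 98.7 (GRN) of all tested genes. The shares of members and of all tested genes were not matched for abundance. The members together took 0.451% and 0.445% of the counts with sgNeg and 0.473% and 0.492% with sgNPM1A. With a library left out, the median log2FC of the members lay between 0.09 and 0.14. Calls of members were lost and gained, and fewer genes were called over all tested genes in each of these fits. Without sgNPM1A 1 the calls of CTSS, SGSH and MANBA were lost, and without sgNPM1A 2 those of CTSK, CTSL, CTSS, NEU1, GALNS and ATP6V1A. Without sgNeg 1 those of CTSD, CTSK, MANBA and NEU1 were lost, and without sgNeg 2 those of GALNS and ATP6V1A. Calls were gained as well: ARSB, PPT1 and ACP2 without sgNeg 1, GLA without sgNeg 2 and PPT1 without sgNPM1A 1.

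**Figure D1:**
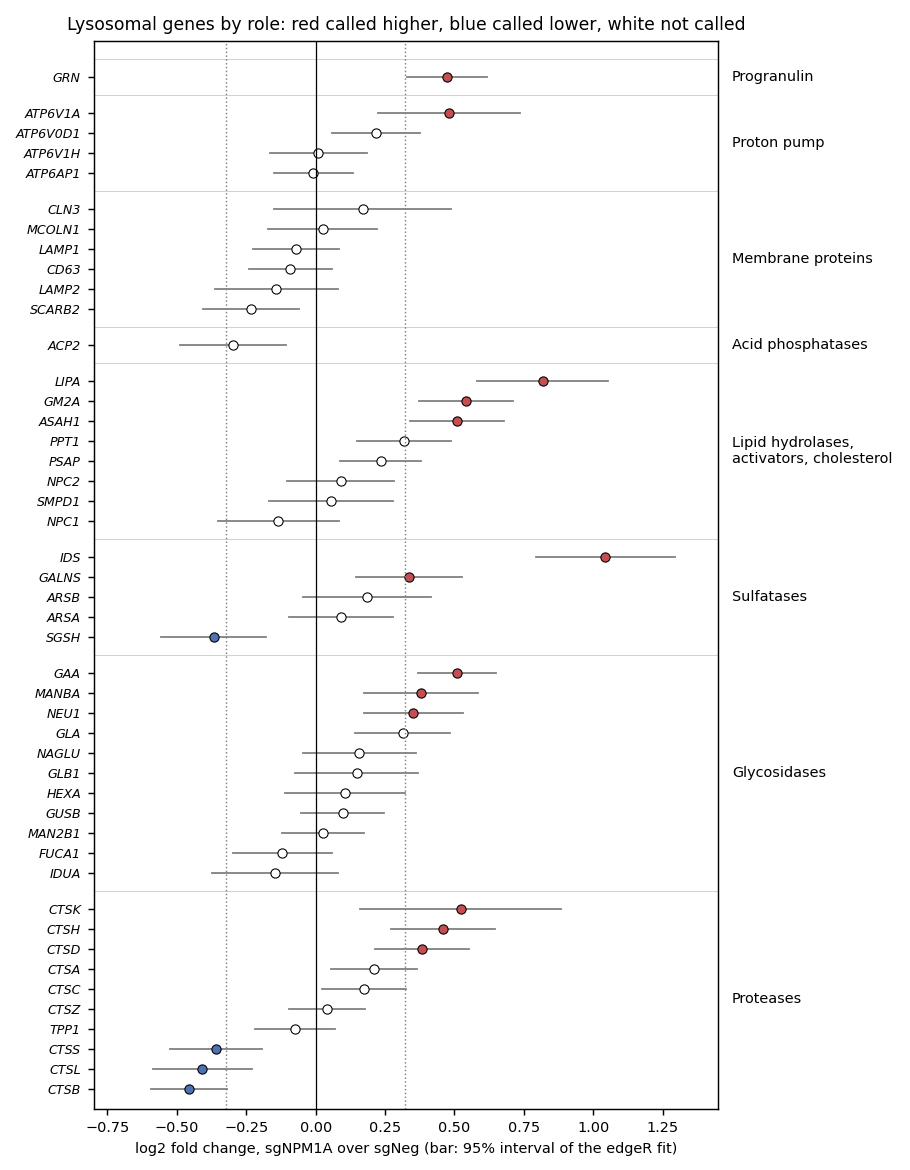
Log2 fold change of the 46 tested lysosomal genes (x axis, sgNPM1A over sgNeg), grouped by role, with 95% intervals of the edgeR fit as bars and dotted lines at the fold threshold of 0.32. Points run from -0.46 for CTSB to 1.04 for IDS, and the 6 membrane proteins are all drawn as not called.

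The proteases moved in both directions. Lysosomal proteases are mostly cathepsins, of the cysteine type (CTSB, CTSC, CTSH, CTSK, CTSL, CTSS and CTSZ) or the aspartic type (CTSD). Of the 10 tested, 3 rose, 3 fell and 4 were not called. The shares called higher and lower were 30% each, beside 10.5% and 10.3% of all tested genes. CTSB (chr8:11842524-11868087 on GRCh38), a cysteine protease with both endo- and exopeptidase activity, had 323 and 322 CPM in the sgNeg libraries and 233 and 237 CPM in the sgNPM1A libraries. The libraries of each group lay within 4 CPM of each other and the groups far apart, with a log2FC of -0.46 ± 0.06 (SE, adjusted p = 0.000277). CTSL, a cysteine protease with broad endopeptidase activity, had 41.6 and 42.5 CPM with sgNeg and 32.5 and 30.9 CPM with sgNPM1A. It fell by 0.41 on the log2 scale (SE 0.08, adjusted p = 0.00334). CTSS, which trims the invariant chain in antigen-presenting cells, had 59.2 and 57.1 CPM against 45.1 and 45.6 CPM and fell by 0.36 (SE 0.07, adjusted p = 0.00472). In these 3 genes both sgNPM1A libraries were below both sgNeg libraries. CTSD (chr11:1752755-1763927), the main aspartic protease, had 164 and 189.7 CPM with sgNeg and 229 and 232 CPM with sgNPM1A, a log2FC of 0.38 ± 0.08 (SE, adjusted p = 0.00373). In the annotation used here 61.3% of the 50-base words of the CTSD transcript also occur in an overlapping gene entry, ENSG00000250644, listed with 4 counts or fewer. CTSH, an aminopeptidase, had 28.0 and 30.6 CPM against 39.6 and 41.0 CPM, a log2FC of 0.46 ± 0.08 (SE, adjusted p = 0.00226). CTSK, the collagenase of osteoclasts, was low, with 4.64 and 6.49 CPM against 7.89 and 8.10 CPM, and rose by 0.52 (SE 0.17, adjusted p = 0.0379). The groups of CTSK did not overlap, but its call was lost with DESeq2 (adjusted p = 0.0891), with upper quartile scaling (0.0526) and with scaling by library size only (0.0516), and its log2FC lay between 0.30 and 0.79 with a library left out. CTSA, a carboxypeptidase that also stabilizes NEU1 and GLB1, had a log2FC of 0.21 (adjusted p = 0.0480) and stayed under the fold threshold. Of the CTSA exons, 24.1% overlap genes on the opposite strand, PLTP among them, whose reads cannot be told apart without strand. CTSC, which activates granule serine proteases, was at 0.17, CTSZ at 0.04 and TPP1, a tripeptidyl peptidase, at -0.07, with adjusted p-values of 0.0871, 0.670 and 0.458.

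Among the glycosidases, which remove sugars from glycoproteins, glycolipids and glycogen, 3 of 11 rose: GAA, MANBA and NEU1. These were 27.3% of the glycosidases, beside 10.5% of all tested genes called higher. By edgeR 0 glycosidases were called lower, beside 10.3% of all tested genes. With 11 genes this count is near that share. DESeq2 and limma also gave 0, and 0 had a negative change at an unadjusted p under 0.05. GAA (chr17:80101581-80119881), the acid alpha-glucosidase that degrades lysosomal glycogen, had 226 and 225 CPM with sgNeg and 313 and 329 CPM with sgNPM1A. The libraries of each group lay close together, and its log2FC of 0.51 ± 0.06 (SE) had an adjusted p of 0.000146. MANBA, the beta-mannosidase, had 19.7 and 21.8 CPM against 27.3 and 26.6 CPM and rose by 0.38 (SE 0.09, adjusted p = 0.0116). NEU1, the lysosomal sialidase, had 48.5 and 54.6 CPM against 64.9 and 66.7 CPM and rose by 0.35 (SE 0.08, adjusted p = 0.00829). The groups did not overlap in any of these 3 genes. GLA, the alpha-galactosidase A that cleaves globotriaosylceramide, had 48.0 and 52.0 CPM against 60.9 and 63.5 CPM, a log2FC of 0.31 (adjusted p = 0.0123) at a fold of 1.24, just under the threshold. The other 7 were not called. NAGLU was at 0.16, GLB1 at 0.15, HEXA at 0.11, GUSB at 0.10, MAN2B1 at 0.03, FUCA1 at -0.12 and IDUA at -0.15 on the log2 scale, with adjusted p-values between 0.241 and 0.805. Of the 50-base words of MAN2B1 33.2%, of HEXA 13.4% and of NAGLU 11.7% also occur in other gene entries. How many reads these 3 genes were assigned depends on the counting. The sgNeg values of GLB1, the beta-galactosidase, were 64.0 and 51.9 CPM and enclosed the lower of its sgNPM1A values, 61.0 and 67.4 CPM.

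Sulfatases take sulfate groups off glycosaminoglycans and sulfolipids. Of the 5 members, IDS and GALNS rose and SGSH fell. The shares called higher and lower were 40% and 20%, beside 10.5% and 10.3% of all tested genes. IDS (chrX:149476988-149505306), the iduronate-2-sulfatase of heparan and dermatan sulfate breakdown, had 227 and 266 counts with sgNeg and 538 and 564 counts with sgNPM1A. In CPM these were 8.93 and 10.3 against 19.3 and 20.3, a log2FC of 1.04 ± 0.11 (SE, adjusted p = 5.08e-05), and each sgNPM1A library was above both sgNeg libraries. In the annotation used here, 90.7% of the 50-base words of the IDS transcript also occur in an overlapping gene entry, ENSG00000241489, which was listed with 4 to 9 counts, so how many IDS reads were assigned depends on the counting. GALNS, which acts on keratan and chondroitin sulfate, had 27.7 and 26.5 CPM against 32.9 and 35.5 CPM and rose by 0.34 (SE 0.09, adjusted p = 0.0148). SGSH, the heparan N-sulfatase, had 35.6 and 36.9 CPM with sgNeg and 26.9 and 29.3 CPM with sgNPM1A and fell by 0.37 (SE 0.09, adjusted p = 0.00910). IDS and SGSH act in the same pathway of heparan sulfate breakdown and moved in opposite directions. ARSB had a log2FC of 0.18 (adjusted p = 0.228), which was 0.33 without sgNeg 1 and 0.052 without sgNeg 2, and ARSA, the sulfatase of sulfatide, of 0.09 (adjusted p = 0.472).

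In lipid breakdown, LIPA, GM2A and ASAH1 rose. They were 37.5% of the 8 members of this group, beside 10.5% of all tested genes called higher. LIPA (chr10:89213572-89414679), the acid lipase that frees cholesterol from lipoprotein esters, had 41.2 and 35.4 CPM with sgNeg and 60.8 and 74.3 CPM with sgNPM1A, a log2FC of 0.82 ± 0.11 (SE, adjusted p = 0.000218). It was the next largest rise among the members after IDS. GM2A, the activator that lifts ganglioside GM2 out of the membrane for hexosaminidase A, had 36.8 and 36.7 CPM against 52.4 and 54.6 CPM and rose by 0.54 (SE 0.08, adjusted p = 0.000377). ASAH1, the acid ceramidase, had 74.98 and 71.4 CPM against 98.5 and 109.8 CPM and rose by 0.51 (SE 0.08, adjusted p = 0.000595). The sgNPM1A libraries of LIPA and ASAH1 differed more from each other than their sgNeg libraries did, with sgNPM1A 2 the higher in both, but lay above both sgNeg libraries. PSAP, the precursor of the saposins that serve several sphingolipid hydrolases, had 255 and 252 CPM against 286 and 309.9 CPM, a log2FC of 0.23 (adjusted p = 0.0239) at a fold of 1.18. PPT1, which removes palmitate from proteins, had 158 and 146 CPM against 178 and 201 CPM, a log2FC of 0.32 (adjusted p = 0.0112) just under the fold threshold. SMPD1, the acid sphingomyelinase, was at 0.06, and the cholesterol exporters NPC2 and NPC1 at 0.09 and -0.13, with adjusted p-values of 0.731, 0.495 and 0.362. Of the 8 members of this group 0 were called lower by edgeR, beside 10.3% of all tested genes. With 8 genes this count is near that share. DESeq2 and limma also gave 0, and 0 had a negative change at an unadjusted p under 0.05. ACP2, the lysosomal acid phosphatase, had 35.3 and 39.2 CPM against 29.8 and 30.7 CPM, a log2FC of -0.30 (adjusted p = 0.0260) short of the fold threshold.

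**Figure D2:**
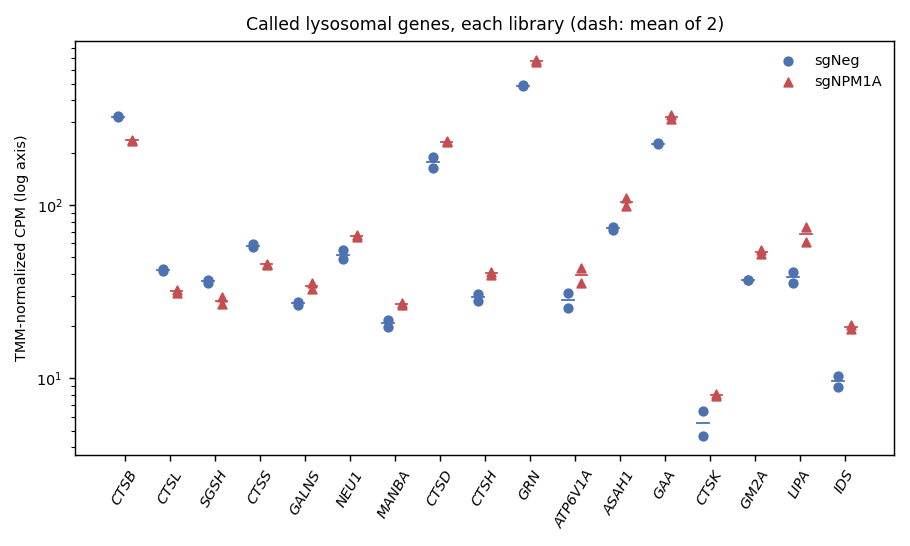
TMM-normalized CPM (log axis) of the 17 called lysosomal genes in each of the 4 libraries, sgNeg as circles and sgNPM1A as triangles, with a dash at the mean of 2 libraries. In each gene the triangles lie wholly on the same side of the circles, below them for CTSB, CTSL, SGSH and CTSS and above them for the other 13.

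None of the 6 membrane proteins that line the lysosome was called; with 20.8% of all tested genes called, this count is near the background. LAMP1 and LAMP2, its major structural glycoproteins, are commonly used as markers of its membrane. LAMP1 (chr13:113297239-113323672) had 258 and 238 CPM with sgNeg and 227 and 246 CPM with sgNPM1A, and the groups overlapped. Its log2 fold change was -0.07 (95% interval -0.23 to 0.08, adjusted p = 0.510). LAMP2 had 119 and 95.8 CPM against 90.9 and 103 CPM, with a log2FC of -0.14 (95% interval -0.36 to 0.08, adjusted p = 0.342), which lay between -0.29 and 0.02 with a library left out. CD63, a tetraspanin of lysosomes and exosomes, was at -0.09, MCOLN1, the mucolipin calcium channel, at 0.03 and CLN3, the Batten disease protein, at 0.17. SCARB2, the receptor that carries glucocerebrosidase to the lysosome, had 46.8 and 44.1 CPM against 38.4 and 39.0 CPM, without overlap, and a log2FC of -0.23 (adjusted p = 0.0506). By edgeR 0 of the 6 were called in either direction, as by DESeq2 and limma, and SCARB2 alone had an unadjusted p under 0.05. For CD63 (95% interval -0.24 to 0.06), MCOLN1 (-0.17 to 0.22) and LAMP1 a log2FC of 0.32 either way lay outside the interval. CLN3 lies wholly within the exons of an overlapping gene entry in the annotation used here (ENSG00000261832, with 0 to 1 counts), and its own counts, 143 to 193 per library, are uncertain for that reason.

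Of the 4 members of the proton pump, 1 was called, ATP6V1A, which rose. With 20.8% of all tested genes called, this count is near the background. ATP6V1A, the catalytic subunit that hydrolyzes ATP, had 31.0 and 25.5 CPM with sgNeg and 35.6 and 43.1 CPM with sgNPM1A, a log2FC of 0.48 ± 0.12 (SE, adjusted p = 0.0109). The groups did not overlap, and the log2FC lay between 0.34 and 0.62 with a library left out. ATP6V0D1, a subunit of the membrane sector, was at 0.22 (adjusted p = 0.0446, fold 1.16), while ATP6V1H and the accessory subunit ATP6AP1 were at 0.01 and -0.01 with overlapping groups. GRN (chr17:44345302-44353106) encodes progranulin, a secreted protein that is cut into granulins in the lysosome. It had 487.3 and 486.8 CPM with sgNeg and 665 and 687 CPM with sgNPM1A, a log2FC of 0.47 ± 0.07 (SE, adjusted p = 0.000294). The sgNeg libraries of GRN differed by less than 1 CPM and both sgNPM1A libraries lay far above them.

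Ratios of 2 members within the same library do not depend on the scaling between libraries. The pairs were chosen after the values had been seen, and their ratios are given as descriptions. The counts of CTSD were 0.507 and 0.589 times those of CTSB in the sgNeg libraries and 0.981 and 0.980 times in the sgNPM1A libraries. GAA over LAMP1 went from 0.878 and 0.943 to 1.38 and 1.34, and GRN over LAMP1 from 1.89 and 2.04 to 2.93 and 2.80. GM2A over HEXA, an activator and a subunit of the enzyme it serves, went from 2.02 and 1.96 to 2.76 and 2.63. LIPA over NPC1, successive steps in the release and export of cholesterol, went from 1.76 and 1.70 to 2.95 and 3.78. NEU1 over CTSA, which form a complex, went from 0.452 and 0.469 to 0.511 and 0.507. The summed counts of the 36 luminal hydrolases and activators were 4.60 and 4.78 times those of the 6 membrane proteins with sgNeg and 5.54 and 5.49 times with sgNPM1A. In each of these ratios both sgNPM1A libraries lay above both sgNeg libraries. The smallest two-sided p that an exact permutation test can reach in this design is 0.333.

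**Figure D3:**
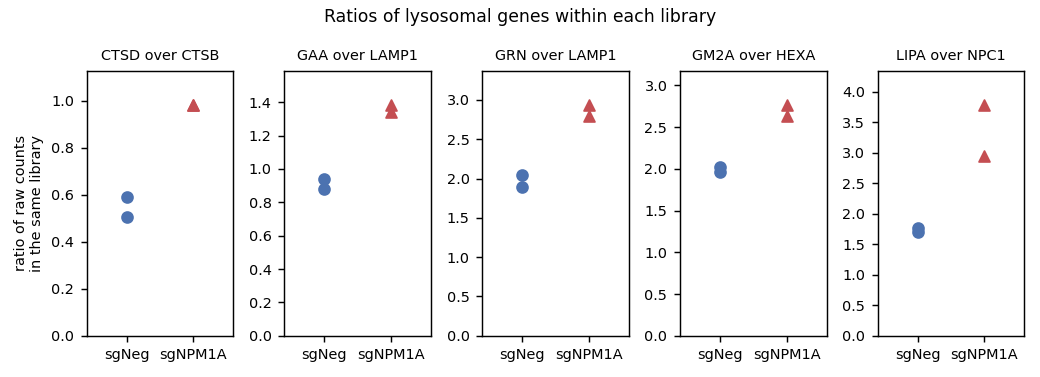
Ratio of the raw counts of 2 lysosomal genes in the same library (y axis from 0), for each of the 4 libraries, sgNeg as circles and sgNPM1A as triangles. CTSD over CTSB moves from 0.507 and 0.589 to 0.981 and 0.980, and in each panel the groups are apart.

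Levels of different genes were compared as CPM per kilobase of the canonical transcript. In the sgNeg libraries GRN was highest at 229 ± 0.16 (SD, n = 2 libraries), followed by CD63 at 199 ± 12.3, CTSZ at 153 ± 1.85, CTSC at 93.7 ± 5.47, PSAP at 92.2 ± 0.93, LAMP1 at 91.8 ± 5.07, CTSB at 86.4 ± 0.31 and CTSD at 86.1 ± 8.87 CPM per kilobase. The levels from CTSC to CTSD lay between 86.1 and 93.7 with SDs of up to 8.87. LAMP1 and CTSB, neighbors in this stretch, did not overlap between libraries, and the libraries of the other neighbors did. With sgNPM1A GRN was at 317 ± 7.35, CD63 at 187 ± 0.76, CTSZ at 157 ± 2.16, CTSD at 112 ± 1.11, PSAP at 109 ± 6.03, CTSC at 106 ± 3.89, LAMP1 at 87.4 ± 4.92 and GAA at 85.6 ± 2.88 CPM per kilobase. CTSB, at 63.0 ± 0.68, was then below CTSD by more than their spread. The lowest tested members with sgNeg were IDS at 1.27, CTSK and CLN3 at 3.42 and HEXA at 3.86 CPM per kilobase. The places of CTSD, IDS, CLN3 and HEXA among these levels depend on how reads shared with overlapping gene entries were counted. Genes called higher were found at both ends of this range, at CTSK as at GRN.

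**Figure D4:**
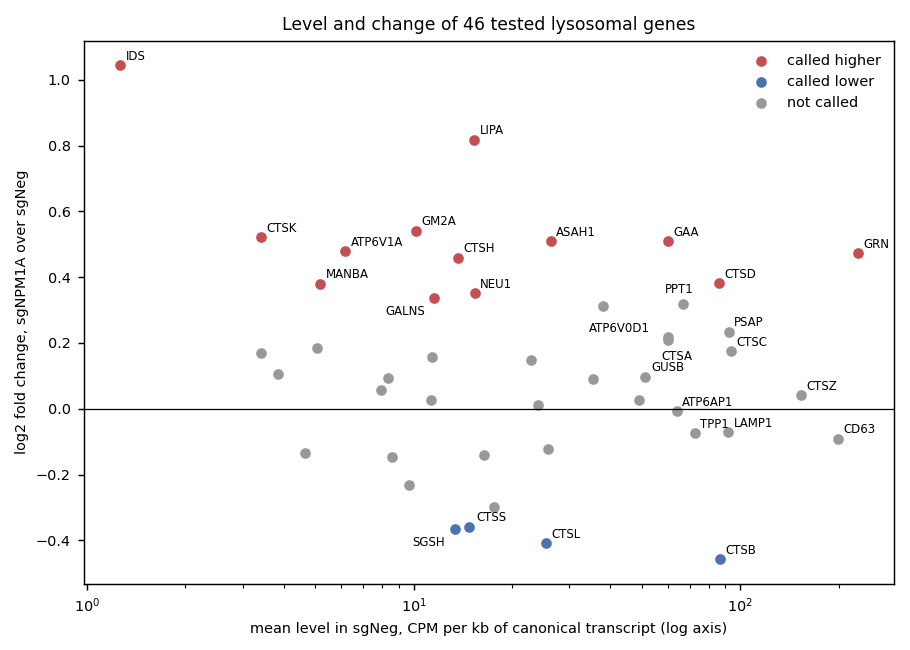
Mean level in the sgNeg libraries (x axis, CPM per kilobase of canonical transcript, log axis) against the log2 fold change (y axis) of the 46 tested lysosomal genes, colored by call. The genes called higher reach from IDS at 1.27 to GRN at 229 CPM per kilobase. The place of IDS depends on how reads shared with an overlapping gene entry were counted.

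The other genes of the pathway were taken from lists of lysosomal and related genes that exclude the members. Of 18 tested V-ATPase genes, 3 were called higher: ATP6V0A1, ATP6V1F and ATP6V1FNB, a neighbor of ATP6V1F that the list took in by its symbol. ATP6V0A1, a subunit of the proton channel sector, had 381 and 394 counts with sgNeg and 1039 and 1057 counts with sgNPM1A, a log2FC of 1.32 ± 0.09 (SE, adjusted p = 1.36e-06), larger than that of any member. The median log2FC of this list was 0.29, and 15 of the 18 genes had a positive value. Among the positive values, those of ATP6V0C, ATP6V0D2, ATP6V1C2 and ATP6V1G2 rest on 12 to 32 counts per library, with SEs between 0.29 and 0.37. Of 27 further lysosomal hydrolases and cofactors, 4 were called higher, DNASE2 among them, and 1 lower. DNASE2, the acid nuclease of lysosomes, had 6 counts in both sgNeg libraries and 45 and 61 with sgNPM1A, and since it passed the filter on low counts through the sgNPM1A libraries alone, its test is not given. CTSF, a cysteine cathepsin, fell from 17.9 and 18.7 CPM to 12.1 and 10.3 CPM (adjusted p = 0.000971).

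Of 23 further lysosomal membrane proteins, 1 was called higher and 3 lower. LAMP5 fell from 437 and 441 CPM to 271 and 244 CPM (adjusted p = 1.53e-05), SIDT2 from 74.2 and 68.8 CPM to 40.9 and 42.9 CPM (adjusted p = 3.24e-05) and TPCN1, an endolysosomal cation channel, from 196 and 207 CPM to 158 and 154 CPM (adjusted p = 0.00158). LAMP5 belongs to the LAMP family by sequence. Among 18 genes of sorting to the lysosome, the adaptor subunits AP1S2 and AP3S1 rose by 0.54 and 0.43 on the log2 scale, and AP1S1 fell by 0.35 (adjusted p = 0.000648, 0.00145 and 0.00285). Of 15 genes that bring mTORC1 to the lysosome, LAMTOR3 and RRAGD rose by 0.47 and 0.50 (adjusted p = 0.00739 and 0.0101). Of 18 autophagy genes, 1 was called higher and 3 lower. MAP1LC3A, an LC3 protein of the autophagosome membrane, fell from 77.4 and 91.3 CPM to 32.5 and 27.8 CPM (adjusted p = 1.85e-06), and ULK1, the kinase that starts autophagy, and ATG16L1 fell by 0.57 and 0.43 (adjusted p = 0.000308 and 0.00247). The share of genes called was 16.7% for the V-ATPase list, 18.5% for the hydrolases, 17.4% for the membrane proteins, 16.7% for sorting, 13.3% for mTORC1 recruitment and 22.2% for autophagy, beside the 20.8% of all tested genes. The share of the hydrolases counts DNASE2 as called.

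**Figure D5:**
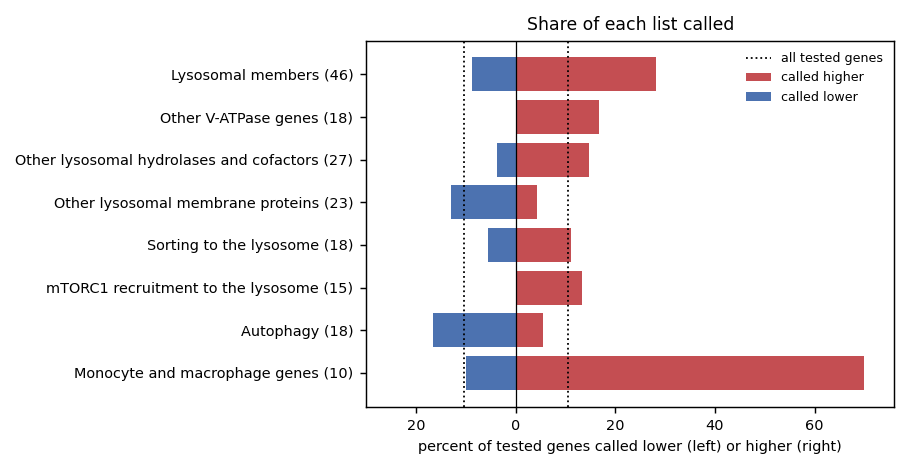
Percent of the tested genes of each list called higher (red, to the right) or lower (blue, to the left) with sgNPM1A, number tested in brackets, with dotted lines at the 10.5% and 10.3% of all tested genes. The lysosomal members stand at 28.3% higher and 8.7% lower, and the list of monocyte and macrophage genes has 7 of 10 called higher. The bar of the other hydrolases counts DNASE2, which passed the filter on low counts through the sgNPM1A libraries alone.

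Of the MiT/TFE factors, TFEB and TFE3 were not called. TFEB had 19.0 and 20.8 CPM with sgNeg and 20.6 and 18.3 CPM with sgNPM1A, with overlapping groups and a log2FC of -0.04 (95% interval -0.26 to 0.19, adjusted p = 0.838). TFE3 was at 89.5 and 86.3 CPM against 90.3 and 88.4 CPM, a log2FC of 0.02 (95% interval -0.13 to 0.17, adjusted p = 0.838). MITF was low, between 1.43 and 2.20 CPM in all libraries, with a log2FC of -0.18 (adjusted p = 0.662). TFEC, near absent with sgNeg at 1 and 2 counts, had 389 and 495 counts with sgNPM1A. It passed the filter on low counts through the sgNPM1A libraries alone, so its test is not given. These values are of mRNA, and the activity of TFEB and TFE3 is known to be set largely by where the proteins are held in the cell.

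Most of the listed genes of monocytes and macrophages rose in the same libraries. Of 10 tested, 7 were called higher and 1 lower, beside 10.5% and 10.3% of all tested genes. The listed genes summed to 611 and 579 CPM with sgNeg and to 3498 and 4356 CPM with sgNPM1A. LYZ alone made up most of the sgNPM1A sum. LYZ, the lysozyme of monocytes and granules, went from 271 and 215 CPM to 2643 and 3367 CPM (adjusted p = 3.94e-08) and S100A9 from 61.7 and 73.8 CPM to 409.7 and 482 CPM (adjusted p = 3.94e-08). CD163, a scavenger receptor of macrophages, fell from 27.5 and 27.9 CPM to 3.48 and 3.46 CPM (adjusted p = 4.51e-08). CD14 was at a log2FC of 0.34 (adjusted p = 0.0557) and VCAN at -0.11 (adjusted p = 0.365). CD68, a lysosomal glycoprotein widely used as a macrophage marker, had between 6 and 10 counts per library and was not tested. Whether CD68 shares reads with other gene entries was not examined, so these counts do not show that it was barely expressed. The part of these genes in the change of the lysosomal genes was not tested.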

How the data were processed

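RNA from OCI-AML3 cells was sequenced as read pairs by the study. The authors mapped the reads to hg38 with STAR and Samtools and deposited raw counts per Ensembl gene, without normalization, for 4 libraries. The counting program, its strand setting and the annotation release are not given in the sources used here. The counts were compared with edgeR 4.0.16 in R 4.3.3: filterByExpr by group (minimum count 10), TMM normalization, robust dispersions and the two-sided quasi-likelihood F test without a replicate block, with Benjamini-Hochberg adjustment over all 15718 tested genes. Calls needed both an adjusted p below 0.05 and an absolute log2 fold change of at least 0.32. CPM use TMM-scaled library sizes, and 3 counts correspond to between 0.108 and 0.118 CPM, which covers counting error only. Alternatives were DESeq2 1.42.0, limma 3.58.1 on quantile-normalized log2 CPM, other scalings, filters and thresholds, a replicate block and leaving out each library. The fits were also run on simulated counts in which 200 genes were changed, far fewer than were called in these data. No call reported here rests on that run.

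Symbols came from GENCODE identifiers, and positions and promoters from RefSeq on GRCh38.p14. Canonical transcript lengths, exon overlaps and shared 50-base words came from GENCODE exons and transcripts lifted to GRCh37. Overlaps and shared words were examined for the members only, not for the other lists. No GRCh37 coordinate is printed. The members and lists were chosen with earlier results of these data known. Named with values were every called member, LAMP1, LAMP2, CTSD, PSAP and GRN, the untested members, the MiT/TFE factors, and from each other list up to 3 called genes with the smallest adjusted p, no overlap between groups and a mean of at least 1 CPM. A gene that this rule also names is not reported here. CD14, VCAN, CD68 and the marker genes, among them COL1A2, were named after their values were seen.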

Additional observations from a re-analysis of the deposited data

How the results depend on the processing

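DESeq2, limma, RLE and upper quartile scaling, a fit of all genes, a stricter count filter of 10 in each library and unadjusted p-values gave 12 or 13 lysosomal genes higher and 4 lower, with CTSK lost by DESeq2 and upper quartile scaling. Over all tested genes these fits called between 2507 (DESeq2) and 4044 (unadjusted p-values), against 3272 in the main fit. With the replicate block 13 members were higher and 4 lower, with a median log2 fold change of 0.13, and every one of the 17 calls was shared. The block changed no call of a member. Deviations of same-numbered libraries had a correlation of -0.130 across all tested genes and of -0.523 across the 8856 genes with a mean above 10 CPM, so a crossed block was added after the data were seen, which gave 13 higher and 4 lower and 3873 calls over all genes (3241 with the replicate block). No fold threshold gave 18 higher and 5 lower, and 4087 calls over all genes. A fold of at least 2 left 1 higher and 0 lower, 12 calls in the other lists (30 before) and 1000 over all genes (3272 before). DNASE2 and TFEC are counted among the calls in the other lists. Scaling by library size only lowered the members' median log2 fold change from 0.13 to 0.087, gave 10 higher and 5 lower (CTSK, NEU1 and GALNS lost, ACP2 gained), and turned the sign of MAN2B1 (-0.013), MCOLN1 (-0.015) and ATP6V1H (-0.030), none of them called. The same scaling moved the median over all tested genes from 0.00 to -0.040, with 1433 genes called higher and 1947 lower. With a library left out, where the lone library of a group is assumed to vary like the others, the members' median lay between 0.09 and 0.14. Fewer genes were also called over all tested genes in each of these fits. MAN2B1 then ranged from -0.014 to 0.073, SMPD1 from -0.025 to 0.14, LAMP2 from -0.29 to 0.020, MCOLN1 from -0.012 to 0.063, ATP6V1H from -0.034 to 0.059 and ATP6AP1 from -0.019 to 0.0034. The fold thresholds call fewer or more genes by construction, and a scaling factor acts on all genes of a library alike. Apart from these, the cause of the shifts was not tested. With 2 libraries per group the p-values rest on variance shared between genes.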
